A study of Mus musculus with 3 samples.

Results

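Retinoids, the vitamin A compounds, travel in blood as retinol bound to a carrier protein, are stored in tissues as esters, and act after oxidation to retinoic acid, a ligand of nuclear receptors. Retinol is first oxidised reversibly to retinaldehyde, and aldehyde dehydrogenases of the ALDH1A family then make retinoic acid in a step that is not reversed. In testis retinoic acid drives spermatogonia into differentiation and meiosis, the liver stores retinyl esters and secretes the plasma carrier, and in adult brain retinoic acid is known to act on neurons and to be made locally in part by the meninges. The 9 genes described here were chosen by name for their role in this route: the plasma carrier Rbp4, the cell surface retinol transporter Stra6, the esterifying enzyme Lrat, the cellular retinoic acid binding proteins Crabp1 and Crabp2, the retinol dehydrogenase Rdh10, and the retinaldehyde dehydrogenases Aldh1a1, Aldh1a2 and Aldh1a3. They are 9 of the 36809 genes that the tables of all 3 tissues list, and all 9 were found by identifier.

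Polyadenylated RNA of testis, brain and liver from male C57BL/6 mice aged 11 weeks was sequenced from strand-specific libraries, with 1 library per tissue. No treatment or mutation is given in the labels, which do not say whether a library came from 1 animal or a pool. Levels are in FPKM (fragments divided by transcript length and by library size), a unit per length that allows genes to be compared. The interval beside a value is the authors' confidence bound, taken as 95%, and covers estimation error within the library. With 1 library per tissue there is no spread between animals, and no difference between tissues was tested. A call, higher or lower, required a difference in log2(FPKM + 1) of at least 2, that is 4-fold on that scale, and intervals that did not overlap. In whole tissue, fewer cells of a type and less RNA per cell cannot be told apart.

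Tissue markers matched the labels. The 8 germ cell markers ran from 132 to 14339 FPKM in testis, against at most 13.5 in brain and 0.15 in liver. The 6 neuron markers ran from 68.2 to 933 FPKM in brain, and the 6 hepatocyte markers from 591 to 20975 FPKM in liver, where the estimate of Serpina3k was marked as failed. Endothelial markers (5 genes) summed to 3.02, 11.7 and 15.1 FPKM in testis, brain and liver, with none at 0. Germ cell markers in brain stood at 0.0349 to 0.534% of their testis level, and hepatocyte markers at up to 0.025% of their liver level in testis and 0.0217% in brain. Neuron markers stood at 0.00926 to 8.62% of their brain level in testis, with a median of 0.0788% and the highest share in Tubb3 at 6.31 FPKM, and at up to 0.0945% in liver. The intervals implied fragment totals of 40.9 M in testis, 31.8 M in brain and 86.3 M in liver, a rough measure of depth that wide intervals lower.

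The 9 genes differed widely in where they stood highest. Aldh1a2, Crabp1 and Aldh1a3 had their highest value in testis, Crabp2 in brain, and Rbp4, Lrat, Aldh1a1 and Rdh10 in liver. Stra6 could not be placed, because its testis estimate was marked LOWDATA and its interval overlapped both other tissues. In testis and in brain the highest of the 9 was Aldh1a1, at 87.1 and 44.6 FPKM, while in liver it was Rbp4, at 1234 FPKM. Liver was the only tissue that listed any of the 9 at 0, and it did so for Crabp2 and Stra6.

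**Figure D1:**
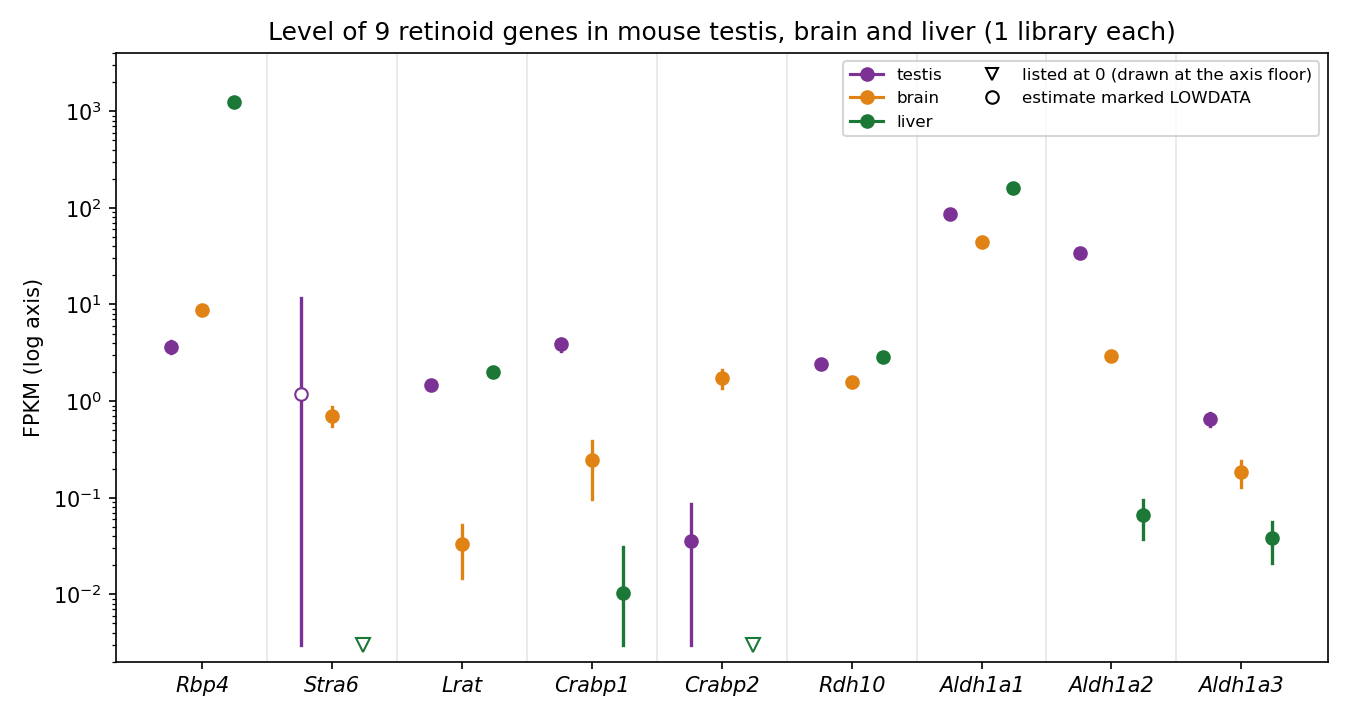
FPKM of the 9 genes on a log axis, with testis, brain and liver from left to right for each gene; points are the values of 1 library and bars the authors' intervals, drawn down to the axis floor where they reach 0, with open circles for LOWDATA estimates and triangles for values listed at 0. Rbp4 stands at 3.66 FPKM in testis and 8.76 in brain, far below 1234 in liver, while Aldh1a2 stands at 34.3 FPKM in testis, above brain at 2.91 and liver at 0.0656.

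Between testis and brain 1 of the 9 was called higher and 0 lower, against 11.0% of all genes higher and 7.19% lower. Between testis and liver 2 were called higher and 1 lower, against 15.2% and 3.82% of all genes. Between brain and liver 0 were called higher and 1 lower, against 9.15% and 2.79%. Among protein-coding genes at 1 FPKM or more in any library, 33.1% were called for testis against brain (19.1% higher, 14.0% lower), 35.1% for testis against liver (27.1% higher, 8.01% lower) and 24.5% for brain against liver (18.4% higher, 6.12% lower). Over all genes the totals were 18.2, 19.0 and 11.9%. The median difference of the 9 was 0.49 in testis against brain, 0.05 in testis against liver and 0.19 in brain against liver, beside 0, 0.02 and 0.01 over all genes. Over protein-coding genes at 1 FPKM or more in any library the medians were -0.01, 0.77 and 0.69. Of the all-gene calls for testis against brain 60.5% were higher as deposited, 94.3% with libraries scaled to their FPKM sum and 46.4% with the protein-coding sum. The share was 79.9% for testis against liver and 64.3% with median-ratio scaling, while for brain against liver it was 76.6%, and 12.9, 57.4 and 87.3% with the FPKM sum, the median ratio and the protein-coding sum. Scaling shifted a log2 difference before the pseudocount by up to 2.79 in testis against brain, -1.08 in testis against liver and -3.40 in brain against liver. The FPKM sum was 1.41e+07 in brain, against 2.04e+06 in testis and 1.33e+06 in liver. The protein-coding sum was 345253 in brain, 568312 in testis and 613096 in liver. Most of each sum thus lay outside protein-coding genes, and in brain nearly all of it did. Scaling to the FPKM sum multiplied brain values by 0.239. Results with the FPKM sum rest on that factor.

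The pseudocount of 1 compresses low values, and 6 of the 9 genes were below 5 FPKM in all 3 tissues. By the intervals alone, 8 of the 9 were apart between testis and brain, 7 between testis and liver and 9 between brain and liver. The same held for 52.9, 53.0 and 47.4% of all genes, and for 84.8, 84.5 and 81.5% of protein-coding genes at 1 FPKM or more in any library, so that intervals apart were common.

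**Figure D2:**
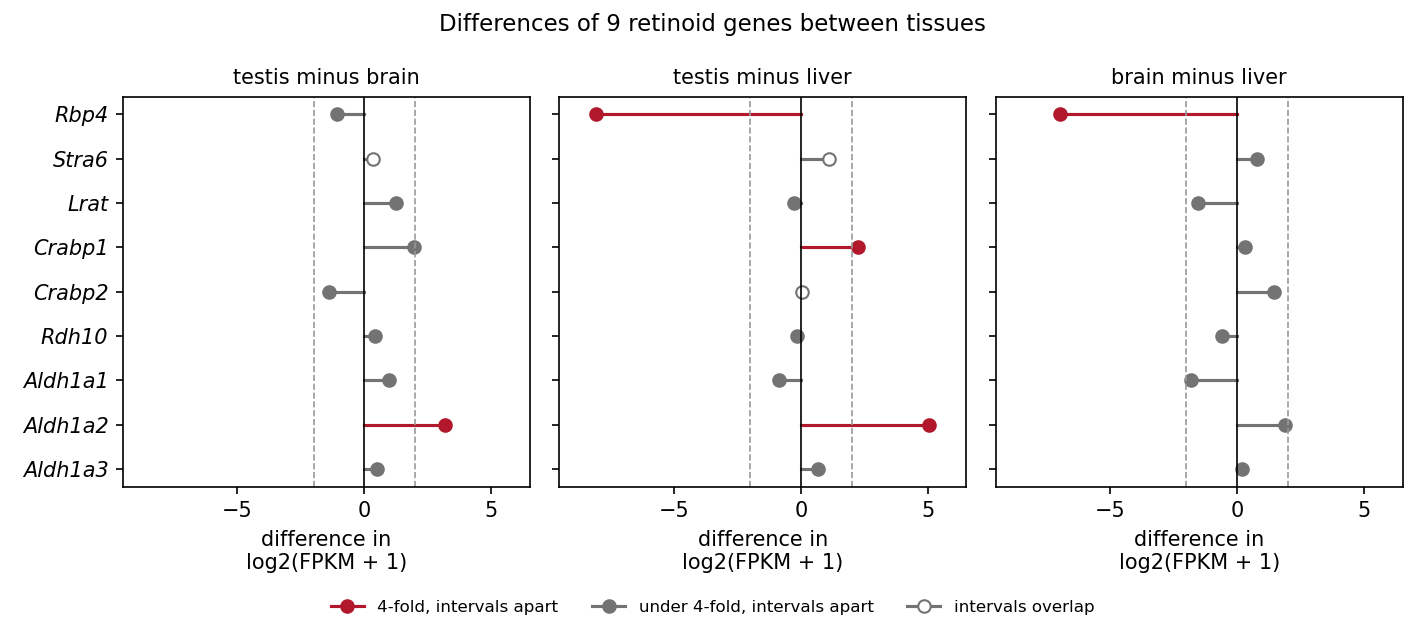
Difference in log2(FPKM + 1) for each of the 9 genes in the 3 pairs of tissues, with dashed lines at the 4-fold limit; red points passed it with intervals apart, grey filled points had intervals apart but were under 4-fold, and open points had overlapping intervals. Aldh1a2 passes against both other tissues in testis, at 3.17 and 5.05, and Rbp4 passes on the lower side against liver, at -8.05 in testis and -6.98 in brain.

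Promoters are shown for the 3 genes that were called in any pair, because Aldh1a2 and Crabp1 were both higher in testis than in liver and Rbp4 was lower. The bases are the 250 before the RefSeq start on GRCm38.p6, read 5′ to 3′ on the gene's strand, and capitals mark matches on either strand to TATAAA (the core of the TATA box), to CCAAT (the CCAAT box) and to GGGCGG (the GC box). For Rbp4, which has 2 RefSeq starts, the downstream start is shown, and the upstream window had 40.8% GC.
Aldh1a2, chr9:71215539-71215788, plus strand: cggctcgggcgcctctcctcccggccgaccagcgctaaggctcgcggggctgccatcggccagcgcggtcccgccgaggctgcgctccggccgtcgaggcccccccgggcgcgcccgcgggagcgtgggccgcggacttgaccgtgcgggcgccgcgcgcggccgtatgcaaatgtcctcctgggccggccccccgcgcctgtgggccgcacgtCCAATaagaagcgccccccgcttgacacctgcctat
Crabp1, chr9:54764498-54764747, plus strand: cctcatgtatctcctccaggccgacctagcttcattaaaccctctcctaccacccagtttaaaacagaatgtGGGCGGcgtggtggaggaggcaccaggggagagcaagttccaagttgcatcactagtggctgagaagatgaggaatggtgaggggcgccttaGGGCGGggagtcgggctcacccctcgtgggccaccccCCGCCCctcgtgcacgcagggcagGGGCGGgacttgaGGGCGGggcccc
Rbp4, chr19:38124812-38125061, minus strand: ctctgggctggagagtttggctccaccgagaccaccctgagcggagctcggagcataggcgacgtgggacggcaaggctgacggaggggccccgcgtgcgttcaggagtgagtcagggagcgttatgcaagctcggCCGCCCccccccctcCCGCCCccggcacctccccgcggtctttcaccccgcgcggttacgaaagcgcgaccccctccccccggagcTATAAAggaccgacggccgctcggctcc

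The Rbp4 window held TATAAA at positions -28 to -23 from the start, a match found in 12.4% of the 32851 promoter windows in the RefSeq table. The Aldh1a2 window had no such match, but held CCAAT at -36 to -32, a match that 33.8% of windows have. Crabp1 carried 5 matches to GGGCGG, which 32.7% of windows hold at least once, and Rbp4 carried 2. No matches overlapped in these 3 windows. GC content was 77.6% for Aldh1a2, 63.6% for Crabp1 and 70.8% for Rbp4, beside a median of 52.4% over all windows, and CpG pairs numbered 40, 12 and 28, beside a median of 6. By contrast, the 2 RefSeq windows of Aldh1a1 had 42.8 and 46.4% GC with 3 and 1 CpG pairs. The hexamer AGGTCA, to which retinoic acid receptors bind, was in 0 of the 11 windows of the 6 members in the table and in 14.0% of all windows. These matches describe letters only.

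Rbp4 (ENSMUSG00000024990, chromosome 19, mm9, 38191110 to 38199811, minus strand) encodes the retinol binding protein that carries retinol from liver through plasma. It stood at 3.66 FPKM (3.11 to 4.2) in testis, while brain had 8.76 (7.90 to 9.61) and liver 1234 (1227 to 1240). Liver was far above both other tissues, and the 3 intervals did not overlap. In liver Rbp4 ranked 60th of 20147 protein-coding genes, against 8460th in testis and 5395th in brain. On the log2 scale testis minus liver was -8.05, and brain minus liver was -6.98. Its level in testis was 0.297% and in brain 0.71% of that in liver, more than the highest hepatocyte marker at 0.025 and 0.0217%. Testis minus brain was -1.07 on the same scale, but 1.18 with libraries scaled to their FPKM sum.

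In plasma RBP4 circulates bound to transthyretin. The transthyretin gene Ttr was at 0.222 FPKM in testis (0 to 1.42, marked LOWDATA), 1625 in brain and 6286 in liver, so that brain, unlike for Rbp4, was also high. Ttr in brain is a marker of the choroid plexus. The 6 choroid plexus markers, Ttr among them, ran from 2.75 to 1625 FPKM in brain, where none was at 0, with a sum of 1651, against sums of 31.6 in testis, where 30.2 was a failed estimate of Folr1, and 6286 in liver, nearly all Ttr. Folr1, Kcne2 and Otx2 were listed at 0 in liver. The part of choroid plexus cells in the brain value of Rbp4 was not tested.

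Stra6 (ENSMUSG00000032327, chromosome 9, 57927117 to 58001803, plus strand) encodes the membrane receptor that takes retinol from RBP4 into cells. It was at 1.17 FPKM in testis, with an interval from 0 to 11.7 and a LOWDATA mark, at 0.705 (0.548 to 0.863) in brain, and was listed at 0 in liver. The testis value cannot be placed against the others, while brain stood above liver with intervals apart. The locus overlaps Ccdc33 on the opposite strand, which was at 78.7 FPKM in testis, with brain at 0.557 and liver at 0.00241. Whether the authors counted by strand is not given in the sources used here, so reads of the pair cannot be told apart in testis or in brain. The place of brain above liver carries the same limit.

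The liver has a related RBP4 receptor, encoded by Stra6l. It was at 0.107 FPKM in testis (LOWDATA), 0.0145 in brain and 26.9 in liver, and was called lower in both other tissues than in liver, with log2 differences of -4.66 in testis and -4.78 in brain. Scarb1, a lipoprotein receptor that also takes up carotenoids, was at 29.0 FPKM in testis, while brain had 5.92 and liver 23.5. It was called higher in testis than in brain by 2.12, close to the limit of 2. Scaling to the protein-coding sum shifts that pair by -0.72 before the pseudocount.

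Lrat (ENSMUSG00000028003, chromosome 3, 82696501 to 82707895, minus strand) encodes lecithin retinol acyltransferase, which makes the storage esters. It was at 1.46 FPKM (1.34 to 1.59) in testis, while brain had 0.0332 (0.0148 to 0.0516) and liver 2.01 (1.91 to 2.11). Testis and liver were close to each other, with intervals apart, and both were far above brain. The testis value was 44.1 times the brain value, or 26.1 to 107 times between the ends of the intervals, and rested on 591 implied fragments against 13 in brain and 1684 in liver. On the log2(FPKM + 1) scale the difference of 1.25 from brain was under the limit of 2. Brain minus liver was -1.54, and -2.09 with median-ratio scaling, which would make it a call. The locus overlaps the antisense gene Rbm46os, which was at 13 FPKM in testis, with brain at 0.0483 and liver at 0. Since counting by strand is not stated, its reads and those of Lrat cannot be told apart in testis or in brain.

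In liver Lrat is known as a gene of hepatic stellate cells, which hold the ester stores. The 8 stellate cell markers summed to 16.9 FPKM in testis, while brain had 38.3 and liver 32.2, with 3, 5 and 3 of them at 1 FPKM or more and none at 0. Lhx2 gave much of the testis and brain sums, at 9.61 FPKM in testis (0 to 46.3, LOWDATA) and 21.3 in brain, against 0.61 in liver. Over the 6 markers marked OK in all 3 libraries, which leaves out Lhx2 and Des, the sums were 5.55 FPKM in testis, with brain at 16.4 and liver highest at 30.7. The part of stellate cells in the level of Lrat was not tested.

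Esters are also made and cleaved by enzymes of general fat metabolism, and of these 3 of 5 were called higher in testis against each other tissue and 0 lower. Lipe, the hormone-sensitive lipase, was at 89.6 FPKM in testis, with brain at 1.91 and liver at 1.19. Pnpla2, a triglyceride lipase, was at 68.6 FPKM in testis, while brain had 5.47 and liver 6.99. Dgat1, an acyltransferase that can esterify retinol, was at 25.1 FPKM in testis, with brain at 4.69 and liver at 3.46. In these 3 genes testis stood above both other tissues with intervals apart. The Dgat1 differences, 2.20 from brain and 2.55 from liver, were close to the limit of 2. Before the pseudocount, the protein-coding sum shifts testis minus brain by -0.72 and the median ratio shifts testis minus liver by -1.08. Lpl was at 6.95 FPKM in testis, while brain had 4.53 and liver 12.3, with no call, and the remaining gene of the list was under 0.1 FPKM in each tissue. The median difference of the list was 2.20 for testis minus brain and 2.55 for testis minus liver.

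Crabp1 and Crabp2 encode small cytosolic proteins that bind retinoic acid. CRABP1 is linked to holding retinoic acid in the cytosol and to its breakdown, and CRABP2 delivers it to nuclear receptors. Crabp1 (ENSMUSG00000032291, chromosome 9, 54612555 to 54620917, plus strand) was at 3.87 FPKM (3.29 to 4.44) in testis, while brain had 0.243 (0.0966 to 0.390) and liver 0.0103 (0 to 0.0310). Testis was well above both other tissues, on 180 implied fragments against 11 in brain and 1 in liver. The difference from liver was 2.27 and was called, but came just under the limit of 2 with median-ratio scaling. Against brain it was 1.97, just under the limit, though the testis FPKM was 15.9 times that of brain, or 8.43 to 46.0 times between the ends of the intervals.

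Crabp2 (ENSMUSG00000004885, chromosome 3, 87752588 to 87757298, plus strand) ran the other way between testis and brain. It was at 0.0353 FPKM (0 to 0.0852) in testis, on 2 implied fragments, at 1.73 (1.37 to 2.08) in brain, on 95, and was listed at 0 in liver. Brain was above both other tissues with intervals apart, and testis and liver overlapped. The log2 difference was -1.4 for testis minus brain, and 1.45 for brain minus liver, both under the limit. In testis Crabp1 thus stood above Crabp2 and in brain Crabp2 above Crabp1, with intervals apart in both.

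Meningeal cells are known to express Crabp2 and Aldh1a2. The 6 leptomeningeal markers ran from 0.619 to 10.2 FPKM in brain, where 5 were at 1 FPKM or more and none at 0. They summed to 19.8 FPKM in testis, with brain at 21.1 and liver at 68.4, and Slc22a6 was listed at 0 in testis and liver. Dcn alone gave 18.5 FPKM of the testis sum and 10.2 of the brain sum, and Dcn and Slc6a13 gave 37.7 and 29.8 of the liver sum. Slc6a20a, at 5.62 FPKM in brain, was marked LOWDATA there (0 to 41.5) and failed in testis and liver. Without it the 5 other markers summed to 19.0 FPKM in testis, with brain at 15.5 and liver at 68.4. The part of meningeal cells in the brain values was not tested.

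Fabp5, a fatty acid binding protein that can also carry retinoic acid, stood above both Crabp genes in each tissue. It was at 12.8 FPKM in testis, while brain had 159 and liver 337, and was called lower in testis than in both, with log2 differences of -3.54 and -4.61. Of the 7 carrier genes, Ttr and Fabp5 included, 0 were called higher and 2 lower in testis against each other tissue. Between brain and liver 1 was called higher and 0 lower, the retinaldehyde binding protein gene Rlbp1, at 3.75 FPKM in brain and listed at 0 in liver.

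Rdh10 (ENSMUSG00000025921, chromosome 1, 16095855 to 16123815, plus strand) encodes a retinol dehydrogenase that makes the retinaldehyde used for retinoic acid in the embryo. It was at 2.44 FPKM (2.25 to 2.64) in testis, while brain had 1.56 (1.41 to 1.72) and liver 2.87 (2.73 to 3.02). By ratio this was the narrowest range of the 9, with liver 1.17 times testis and testis 1.56 times brain. The intervals were apart, yet the order of testis and brain turned with the protein-coding sum, at -0.05 in place of 0.43.

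Other genes that oxidise retinol, reduce retinaldehyde or cleave carotene stood mostly lower than in liver: log2 differences were below 0 in 13 of 18 for testis and in 15 of 18 for brain. Of 18 such genes, 1 was called higher and 8 lower in testis than in liver, and 0 higher and 9 lower in brain than in liver. The highest in liver were Adh1, an alcohol dehydrogenase, at 2.70 FPKM in testis, while brain had 0.248 and liver 384, and the retinol dehydrogenase Rdh7, at 0.0397 FPKM in testis, 0.0417 in brain (LOWDATA) and 337 in liver. Dhrs3, which reduces retinaldehyde back to retinol, was at 7.55 FPKM in testis, with brain at 13.4 and liver at 80.5. Adh5, another alcohol dehydrogenase, was at 16.6 FPKM in testis, with brain at 27.5 and liver at 148. The retinol dehydrogenases Rdh9 and Rdh16 were at 30.7 and 12.4 FPKM in liver, each under 0.1 in testis and brain. Rdh1, Rdh7, Rdh9 and Rdh16 are close copies in 1 cluster, so that their single values are uncertain.

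A few genes stood above liver in testis, with intervals apart. Bco1, which cleaves carotene to retinaldehyde, was at 7.42 FPKM in testis, with brain at 0.0138 and liver at 0.998. It was called higher against both, by 3.05 and 2.08. The difference from liver was close to the limit of 2, and median-ratio scaling shifts that pair by -1.08 before the pseudocount. Rdh11, a microsomal retinaldehyde reductase, was at 93.5 FPKM in testis, while brain had 7.53 and liver 32.0, and was called higher than in brain by 3.47 but not than in liver, at 1.52. Adh7, an alcohol dehydrogenase that oxidises retinol, was at 2.37 FPKM in testis, with brain at 0.0208 and liver at 0.518, and was not called. Adh4 was above brain and below liver in testis, at 7.47 FPKM there, listed at 0 in brain and at 38.0 in liver, and was called in both pairs. Bco1, Rdh11 and Adh4 were the 3 of 18 genes called higher in testis than in brain, where 0 were called lower.

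The retinaldehyde dehydrogenases carried most of the summed FPKM of the 9 genes in testis and brain, with 90.6% in testis, 78.6% in brain and 11.4% in liver. Aldh1a1 (ENSMUSG00000053279, chromosome 19, 20676451 to 20717952, plus strand) was at 87.1 FPKM (85.5 to 88.6) in testis, while brain had 44.6 (43.5 to 45.8) and liver 159 (157 to 160). It was abundant in all 3 tissues, with liver above testis and testis above brain, and the intervals were apart. Its rank among 20147 protein-coding genes was 1252 in testis, 1272 in brain and 305 in liver, so that by rank testis and brain were close. None of its differences was called: testis minus brain was 0.95, testis minus liver -0.86 and brain minus liver -1.81. The difference of brain from liver became a call with median-ratio scaling, at -2.95, and with the FPKM sum, at -5.11, and that of testis from brain with the FPKM sum, at 3.63.

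In brain Aldh1a1 is known from dopaminergic neurons of the midbrain. The 5 dopaminergic markers ran from 3.40 to 7.60 FPKM in brain with none at 0, and summed to 0.425 FPKM in testis, while brain had 27.3 and liver 33.1, where Ddc made up nearly the whole sum and Th was listed at 0. The dopamine transporter gene Slc6a3 was listed at 0 in testis. The part of these cells in the brain level of Aldh1a1 was not tested.

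Aldh1a2 (ENSMUSG00000013584, chromosome 9, 71063596 to 71144050, plus strand) encodes the enzyme that makes most retinoic acid in the early embryo. It was at 34.3 FPKM (33.3 to 35.2) in testis, while brain had 2.91 (2.63 to 3.18) and liver 0.0656 (0.0377 to 0.0936). Testis stood above brain and brain above liver, with no overlap. Testis was higher than brain by 3.17 on the log2 scale and than liver by 5.05, both calls. In FPKM, testis was at 11.8 times brain, or 10.5 to 13.4 times between the ends of the intervals, and at 522 times liver, or 356 to 934 times, on 5523 implied fragments in testis, 455 in brain and 22 in liver. The brain level was 8.49% of that in testis, above the 0.0349 to 0.534% of the germ cell markers. Brain was higher than liver by 1.87, under the limit, and by 2.29 with the protein-coding sum.

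In testis both germ cells and Sertoli cells are sources of such enzymes, with Aldh1a2 known from spermatocytes and spermatids and Aldh1a1 from Sertoli cells. Of the 8 Sertoli cell markers 7 were measured, and they summed to 65.1 FPKM in testis, 119 in brain, where Cldn11, also a gene of myelinating cells, made 114, and 4.14 in liver. Fshr was listed at 0 in brain and liver and Gata4 in brain, and 3.05 of the liver sum was Gata4, a failed estimate (0 to 24.3). The 5 Leydig cell markers summed to 441 FPKM in testis, with brain at 1.67 and liver at 9.28, where Cyp11a1 was listed at 0, and 299 of the testis sum was Insl3, marked as a failed estimate. The 4 peritubular myoid cell markers summed to 31.5 FPKM in testis, while brain had 8.84 and liver 4.09, with none at 0. The 8 germ cell markers summed to 40301, 33.3 and 0.27 FPKM in testis, brain and liver, with Prm1, Sycp3 and Acrv1 listed at 0 in liver. The part of each cell type in the testis levels was not tested.

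Aldh1a3 (ENSMUSG00000015134, chromosome 7, 73535781 to 73572363, minus strand) was the scarcest of the 3 enzymes in each tissue. It was at 0.659 FPKM (0.557 to 0.762) in testis, while brain had 0.185 (0.130 to 0.24) and liver 0.0385 (0.0213 to 0.0557). The order was that of Aldh1a2, with intervals apart, at lower levels and with no call. Testis was at 3.56 times brain in FPKM, or 2.31 to 5.86 times, and at 17.1 times liver, or 10 to 35.8 times. The order of brain and liver turned with the FPKM sum, at -0.07 in place of 0.19.

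Within a library the mix of the 3 enzymes does not depend on how libraries are scaled. Aldh1a2 made up 28.1% of the Aldh1a sum in testis (27.2 to 29.0 between the ends of the intervals), 6.09% in brain (5.42 to 6.79) and 0.0414% in liver (0.0235 to 0.0596). Aldh1a1 made up 71.4% in testis, 93.5% in brain and 99.9% in liver, and Aldh1a3 0.54, 0.388 and 0.0242%. The testis thus held a mix of Aldh1a1 and Aldh1a2, whereas nearly the whole sum in liver was Aldh1a1.

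**Figure D3:**
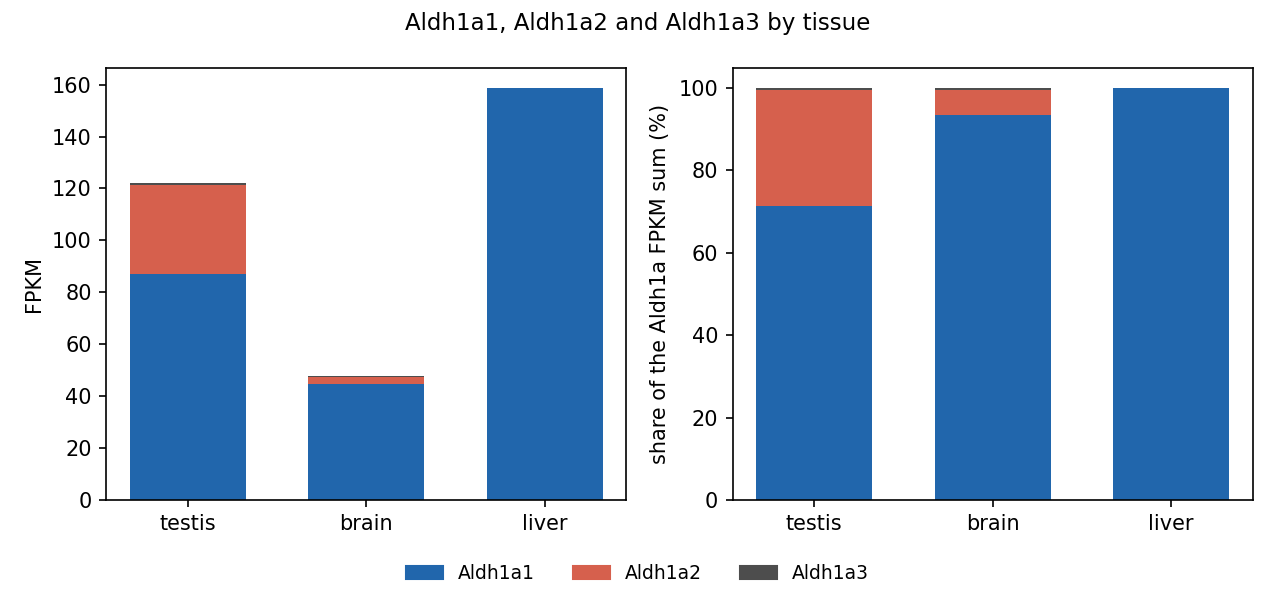
Stacked FPKM of Aldh1a1, Aldh1a2 and Aldh1a3 in testis, brain and liver (left), and each gene's share of their sum within the library (right). The sum is 122 FPKM in testis, with brain at 47.7 and liver at 159, and the Aldh1a2 share is 28.1, 6.09 and 0.0414%.

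Related aldehyde dehydrogenases were lower in testis and in brain than in liver in 3 of 3 genes. Aldh1a7, a close copy of Aldh1a1 that lies beside it on chromosome 19, was at 6.71 FPKM in testis, while brain had 1.29 and liver 75.2. The split of reads between that pair is uncertain. Aldh8a1, which can oxidise a cis form of retinaldehyde, was at 0.977 FPKM in testis, with brain at 0.0512 and liver at 71.6. Aldh1b1, a mitochondrial enzyme, was at 3.38 FPKM in testis, while brain had 2.08 and liver 28.0.

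Downstream of synthesis, none of the 3 hydroxylase genes that clear retinoic acid and none of the 6 receptor genes was called in any pair with the pseudocount of 1. With 0.1, 2 of them were called. Cyp26a1 was at 0.489 FPKM (0.363 to 0.615) in testis, while brain had 0.0923 (0.0366 to 0.148) and liver 3.22 (2.99 to 3.44), and with 0.1 it was called lower than in liver in testis, at -2.49, and in brain, at -4.11. Rarb, a retinoic acid receptor gene, was at 0.309 FPKM (0.1 to 0.517) in testis, while brain had 2.56 (1.95 to 3.17) and liver 0.871 (0.682 to 1.06), and with 0.1 testis was called lower than brain, at -2.70. The hydroxylases summed to 3.27 FPKM in testis, with brain at 0.753 and liver at 4.51. Cyp26b1 gave 2.79 of the testis sum (2.44 to 3.13), above brain at 0.661 (0.388 to 0.934) and liver at 1.29 (1.02 to 1.56). Rara, another receptor gene, was also highest in testis, at 6.08 FPKM, while brain had 2.29 and liver 1.97, with intervals apart from testis. Testis was above brain in 2 of the 6 receptor genes and below in 4, and above liver in 1 and below in 5. Of the receptor genes below liver only Rarb had intervals apart, and the intervals of Rxra overlapped in both pairs. Rxra, the partner receptor, was at 17.5 FPKM in testis, while brain had 4.28 and liver 40.6, but the brain and liver estimates were marked as failed and their intervals reached down to 0. Rxrb was at 3.48 FPKM in testis, with brain at 10.1 and liver at 3.71.

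Genes known to be induced by retinoic acid went both ways. Stra8, which retinoic acid switches on as germ cells enter meiosis, was at 5.74 FPKM (5.28 to 6.20) in testis and was listed at 0 in brain and liver. Rec8, a meiotic cohesin that retinoic acid induces in germ cells, was at 39.0 FPKM in testis, while brain had 1.4 and liver 0.27. These were the 2 of 7 called higher in testis against both. Rarres2, which encodes the secreted protein chemerin, was at 7.12 FPKM in testis, with brain at 9.98 and liver at 355, and Tgm2, a transglutaminase, at 2.22, 3.85 and 13.9 FPKM in the same order of tissues. Both were called lower in testis than in liver. Rarres1 was at 3.38 FPKM in testis, while brain had 0.235 and liver 7.88, and with Rarres2 it was called lower in brain than in liver.

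**Figure D4:**
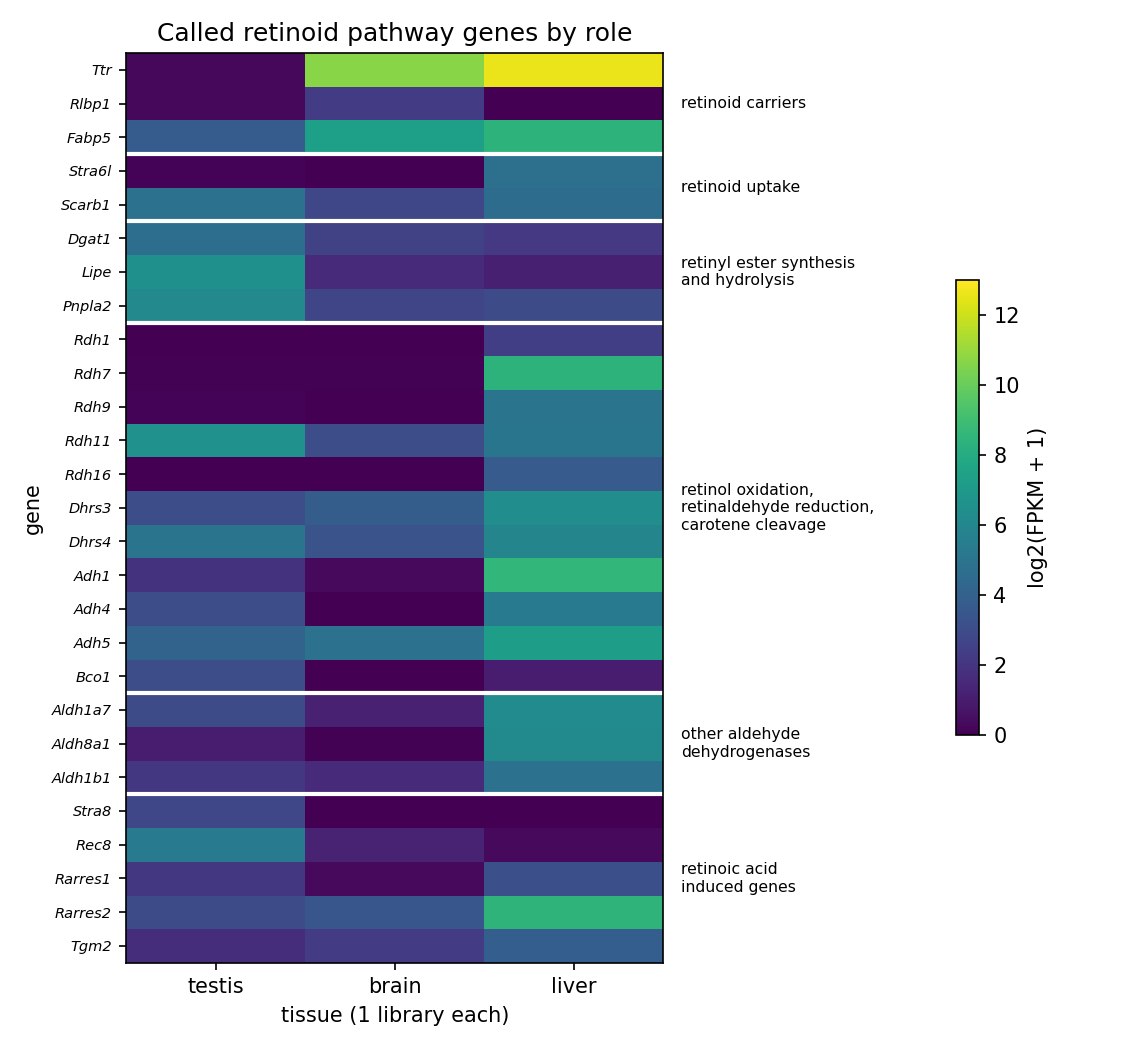
Level of the other genes of the retinoid route that were called in at least 1 pair of tissues, as log2(FPKM + 1), grouped by role, in testis, brain and liver. The ester handling genes drawn, such as Lipe (89.6 FPKM), are brightest in testis. Lpl, which was highest in liver and had no call, is not drawn. Most of the retinol oxidation genes drawn, such as Rdh7 and Adh1 (337 and 384 FPKM), are brightest in liver.

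Over the 52 genes together 9 were called higher and 2 lower in testis than in brain, 6 higher and 16 lower in testis than in liver, and 1 higher and 15 lower in brain than in liver. The shares of all genes were 11.0% higher and 7.19% lower, 15.2% and 3.82%, and 9.15% and 2.79% in the same pairs. Among protein-coding genes at 1 FPKM or more in any library they were 19.1% and 14.0%, 27.1% and 8.01%, and 18.4% and 6.12%. The split against brain was 19 and 1 with the FPKM sum and 7 and 4 with the protein-coding sum, and that for testis against liver was 4 and 21 with the median ratio. The median difference of the 52 genes was 0.01, -0.61 and -0.84 in the 3 pairs, beside 0, 0.02 and 0.01 over all genes. Over protein-coding genes at 1 FPKM or more in any library it was -0.01, 0.77 and 0.69.

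The 18430 other protein-coding genes with sound estimates were compared with each member by Euclidean distance in log2(FPKM + 1) over the 3 tissues. The pseudocount draws low genes together, so the number of near genes follows level as well as tissue pattern. Rbp4 and Aldh1a1 had 0 genes within a distance of 0.5, and the nearest were Cat, at 1.4, and Hspa9, at 0.56. Aldh1a2 had 24 such genes. Lrat had 7, led by Dpt, and Rdh10 had 45, led by Anxa1. The low genes had many, with 256 for Crabp1 (nearest Klhl35), 322 for Crabp2 (Wnt10a) and 714 for Aldh1a3 (Ccdc78). Stra6 had 160 (Slc9a2), but this rests on its LOWDATA testis value (0 to 11.7 FPKM) and cannot be relied on. Likeness over 3 values is a description only.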

How the data were processed

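Per the labels' protocols, strand-specific libraries were read from a single end over 76 cycles, with 3 lanes for each. Cufflinks 2.0.0, TopHat 1.4.0, Bowtie 0.12.5 and mm9 stand in the submitters' processing notes. Which annotation was used, and whether counting used strand, is not given in the sources used here. The deposited tables give FPKM per gene with confidence bounds and a status, per the file headers, and no counts. The square of 2 times FPKM over the upper width gave implied fragments, whole within 0.1 for 69.6% (testis), 69.7% (brain) and 69.6% (liver) of low values and for 14 of 17 member values above 0 marked OK and under 1000 fragments. They are a rough measure of depth, since an interval wider than counting error lowers them. In testis, Ddx4 had 429 implied fragments at 132 FPKM, against 10147 for Sycp3 at 139 FPKM.

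FPKM was used as deposited. 12 identifiers at more than 1 locus were summed, and 1 was added to locus starts, after which 37 of 37 mitochondrial genes matched the reference coordinates. Symbols came from the reference table of gene names for 31837 of 36809 identifiers, and strands and gene types from GENCODE M21, matched by identifier. 1 of 128 list entries, Rhox5, was not matched and is not analysed here. Of the members, 6 of 9 had promoters in the RefSeq table. The calling step was run on simulated data, but the settings and result of that run are not reported here. That run is not evidence for the calls of the 9 members, and it cannot stand in for spread between animals. The tools were Python 3.11.15, pandas 2.3.3 and numpy 2.4.6.

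The members and gene lists were chosen with earlier results of these data known. Genes named are the 9 members, pathway genes at 10 FPKM or more or called in any pair, marker extremes and the nearest profile of each member. Some genes that this rule names are not reported here. Adh7, Cyp26a1, Cyp26b1, Rara, Rarb and the marker genes that carry a list's sum were named after their values were seen. The choice of sums over markers marked OK was also made then. Alternatives changed the pseudocount, scaling, fold limit, interval rule, low-value filter and status filter.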

Additional observations from a re-analysis of the deposited data

How the results depend on the processing

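By construction, the pseudocount, fold, interval, low-value and status alternatives cannot turn the direction of a member difference. Under the last pair 24 of 27 differences had a value. Only scaling could turn a direction, and it did so for Rbp4 and Aldh1a3 with the FPKM sum and Rdh10 with the protein-coding sum. As reported, 1, 3 and 1 of the 9 genes, 11, 22 and 16 of the 52 pathway genes and 6705, 7005 and 4394 of all genes were called for testis minus brain, testis minus liver and brain minus liver. With a pseudocount of 0.1, 4 of the 9 genes were called for testis minus brain and 5 for brain minus liver, 20 pathway genes for testis minus brain, and 10272, 10900 and 7661 of all genes in the 3 pairs. With 0.01, these were 4 and 7 of the 9, 22 pathway genes for testis minus brain and 27 for brain minus liver, and 11946, 13021 and 9751 of all genes. A smaller pseudocount by construction enlarges differences of low genes, and Crabp1, Crabp2 and Lrat then passed the limit between testis and brain. With libraries scaled to the FPKM sum, 3 of the 9 were called for testis minus brain and 4 for brain minus liver, 20 and 28 pathway genes, and 7226 of all genes for brain minus liver. For brain minus liver 3 of the 9 were called with the median ratio and 2 with the protein-coding sum. These scalings move all genes at once, by -1.15 and 0.83 in log2 before the pseudocount. All-gene totals for them, and for testis minus brain with the FPKM sum, are not reported here. The member counts under these settings thus do not set the 9 apart from other genes. A fold minimum of 2 called 5 of the 9 for testis minus brain and 5 for brain minus liver, 23 and 26 pathway genes, and 11617, 11597 and 8903 of all genes. A minimum of 8 called 10 pathway genes for brain minus liver and 3988, 4276 and 2463 of all genes. The order of the tissues was kept in 7 of 9 genes with the FPKM sum, 9 with the median ratio and 8 with the protein-coding sum. The nearest profile was kept for 4 of 9 genes with a pseudocount of 0.1 and 4 with 0.01. Without replicates no library could be left out. No paired analysis was possible because each tissue had 1 library and no replicate numbers. Depth limits Crabp2 in testis, with 2 implied fragments, and Crabp1 in liver, with 1.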
